A study of Homo sapiens with 2 samples.

Results

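The genes of the bone morphogenetic protein (BMP) and transforming growth factor beta (TGF-beta) pathways were examined for OTX2 binding in D283 tumorspheres. The 46 genes were listed by their role in the pathway, by a rule that used no binding value, although earlier results of these data were known when it was chosen: 20 ligands, 12 receptors, 8 SMADs and 6 secreted antagonists, out of 19881 protein-coding genes (chromosomes 1 to 22 with X and Y). D283 is an established medulloblastoma cell line with features of Group 3 and Group 4 tumours, and the tumorspheres were grown as floating colonies in neural proliferation medium with EGF and bFGF, with their own OTX2 expression left intact. A single OTX2 ChIP library, made with a rabbit antibody to OTX2, was compared by the authors with a single input library of sheared chromatin from these cells. The peak list therefore describes 1 culture of 1 line, replicate error is unknown throughout, and no test between conditions could be made. A peak list holds no expression values, so the identity of the cells was not checked against marker genes.

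BMPs, TGF-betas, activins and NODAL are secreted ligands that bring together type I and type II serine/threonine kinase receptors at the cell surface. The activated type I receptor phosphorylates receptor SMADs, which join the common SMAD4 and enter the nucleus to regulate transcription, while the inhibitory SMADs and secreted antagonists such as noggin and chordin dampen the signal. In the developing cerebellum BMP signals are known to favour differentiation of granule neuron progenitors. OTX2 is a homeodomain transcription factor that is amplified or highly expressed in many Group 3 and Group 4 medulloblastomas.

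The ChIP library held 61259377 fragments and the input library 22521186 after duplicates were removed, and 137412 peaks were called. Each ChIP fragment added 0.735 to the deposited pileup, the coverage at the summit of a peak, so that heights are given here as whole fragments with exact 95% Poisson intervals that cover counting error only. The fold enrichment is the authors' ratio of the pileup to the local input. Over all peaks the median height was 53 fragments (range 15 to 461) and the median fold enrichment 6.10.

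The promoters of 5 members are shown first, because they show the sequence at the transcription start site (TSS) of genes with and without a called peak near the start of the gene record. The sequences are RefSeq promoters in GRCh38.p14, each from 250 bases before to 50 bases after the annotated start and written 5′ to 3′ on the strand of the gene. Capitals mark TAATCC or TAATCT, the letters named for the OTX2 motif, searched on both strands. The first 3, BMPR1B (chr4:94757705-94758004, + strand), ACVR1 (chr2:157876281-157876580, − strand) and SMAD6 (chr15:66701986-66702285, + strand), are those in which the strongest peak near the TSS had its summit inside the sequence.
BMPR1B: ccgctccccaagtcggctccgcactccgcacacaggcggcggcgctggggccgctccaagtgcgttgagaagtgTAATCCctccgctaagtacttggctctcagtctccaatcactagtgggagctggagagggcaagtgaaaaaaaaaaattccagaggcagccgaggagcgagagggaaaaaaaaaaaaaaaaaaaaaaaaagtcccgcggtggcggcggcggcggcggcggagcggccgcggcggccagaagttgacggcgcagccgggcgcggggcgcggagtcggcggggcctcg
ACVR1: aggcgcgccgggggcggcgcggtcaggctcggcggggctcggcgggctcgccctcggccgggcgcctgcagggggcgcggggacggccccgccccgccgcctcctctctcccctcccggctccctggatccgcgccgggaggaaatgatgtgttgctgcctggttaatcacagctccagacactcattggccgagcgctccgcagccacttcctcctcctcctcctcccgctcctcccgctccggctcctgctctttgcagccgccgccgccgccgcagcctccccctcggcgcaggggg
SMAD6: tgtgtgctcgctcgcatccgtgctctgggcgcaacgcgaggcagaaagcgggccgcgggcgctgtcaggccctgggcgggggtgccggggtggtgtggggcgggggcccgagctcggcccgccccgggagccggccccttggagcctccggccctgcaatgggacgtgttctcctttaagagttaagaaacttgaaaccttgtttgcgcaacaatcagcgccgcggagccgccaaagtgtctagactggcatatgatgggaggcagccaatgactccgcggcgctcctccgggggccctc
BMP10 (chr2:68871348-68871647, − strand) and BMP4 (chr14:53955001-53955300, − strand) had no called peak near the start of the GENCODE gene record and are shown beside them, the first such members in alphabetical order among those with a matched RefSeq promoter. Both had peaks further from the start of that record. For BMP4 a peak of 7.25-fold at chr14:53953448-53953930 lay downstream of the RefSeq start printed here. That peak would fall inside the window used below for peaks near the TSS if the window were drawn around this RefSeq start. The BMP4 sequence is therefore not an example of a promoter without a peak nearby.
BMP10: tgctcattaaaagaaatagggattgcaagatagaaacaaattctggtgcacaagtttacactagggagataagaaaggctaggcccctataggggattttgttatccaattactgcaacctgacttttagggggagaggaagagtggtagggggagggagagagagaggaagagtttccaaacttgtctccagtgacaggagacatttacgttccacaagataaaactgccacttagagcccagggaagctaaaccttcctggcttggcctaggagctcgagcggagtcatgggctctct
BMP4: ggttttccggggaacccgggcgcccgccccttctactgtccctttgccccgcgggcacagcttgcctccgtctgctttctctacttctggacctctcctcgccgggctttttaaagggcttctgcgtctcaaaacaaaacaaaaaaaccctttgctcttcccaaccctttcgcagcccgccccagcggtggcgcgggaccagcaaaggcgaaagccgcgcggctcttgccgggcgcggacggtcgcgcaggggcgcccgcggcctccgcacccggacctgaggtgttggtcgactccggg

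Of these 5 sequences, that of BMPR1B held a match, TAATCC on the gene strand, which began 176 bases before the start, and the summit of the BMPR1B peak lay 187 bases before it. Neither ACVR1, with a summit 27 bases before the start, nor SMAD6, with one 46 bases before it, held these letters in the window. RefSeq promoters were matched for 38 of the 46 members and were not matched for BMP2, BMP3, BMP7, GDF6, ACVRL1, NOG, LEFTY1 and LEFTY2. A match was found in 3 of the 38 promoters (7.89%), those of BMPR1B, INHBA and TGFB2, against 10.2% of 15236 promoters of the same length. All 3 matches were TAATCC on the gene strand, and those of INHBA and TGFB2 began 228 and 81 bases before the RefSeq start. Neither the INHBA nor the TGFB2 promoter was covered by a peak. Among all promoters the motif was found in 14.5% of those that held a summit and in 9.40% of those that no peak covered. A peak covered 14 of the 38 member promoters (36.8%) against 41.0% of all promoters, and the median GC content was 67.3% against 63.0%. The direction of the motif comparison depended on the letters, since TAATCC alone was found in 7.89% of member promoters and in 5.34% of all promoters. Both rest on 3 matches, and neither was tested.

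OTX2 peaks lay near the TSS of 33 of the 46 members (71.7%), where 57.2% of all protein-coding genes had one. Near the TSS means that at least 1 base of a peak overlapped a window that began 5 kb upstream of the 5′ end of the GENCODE gene record and ended 2 kb downstream of it. In a window of 1 kb to each side of that end the members did not stand above the background, with 21 of 46 (45.7%) against 46.9%. With a fold enrichment of at least 5 required, 24 members (52.2%) had a peak near the TSS, where 38.5% of all genes had one. In the gene record extended by 20 kb on either side, 45 members (97.8%) had at least 1 peak, against a background of 88.1%. Without the extension the share was 71.7% against 69.5%.

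The roles differed in these counts, although each held few genes and the differences were not tested. Receptors had a peak near the TSS in 11 of 12 genes (91.7%) and SMADs in 7 of 8 (87.5%). Antagonists had one in 4 of 6 (66.7%) and ligands in 11 of 20 (55.0%), a share close to the background of 57.2%. Within 1 kb of the TSS the counts were 8 of 12 receptors, 7 of 8 SMADs, 2 of 6 antagonists and 4 of 20 ligands (20.0%), so that the ligand share was below and the receptor and SMAD shares above the background of 46.9%. In the extended record all receptors, SMADs and antagonists and 19 of 20 ligands had a peak, beside the high background of 88.1%.

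**Figure D1:**
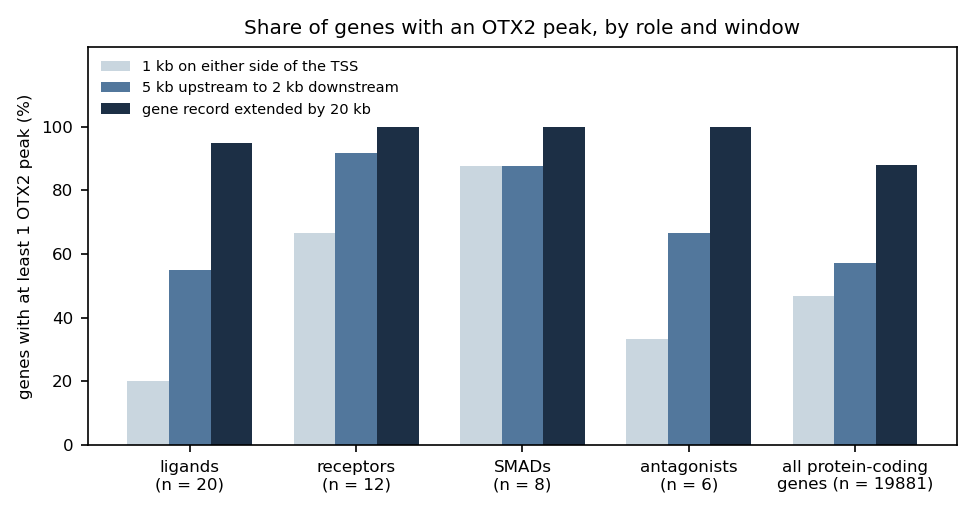
Percentage of genes with at least 1 OTX2 peak in 3 windows: 1 kb to each side of the TSS, the wider window that runs 5 kb upstream and 2 kb downstream, and the gene record extended by 20 kb, for each role and for all 19881 protein-coding genes. Ligands lay below the receptors and SMADs in the 2 narrower windows, and all groups lay near the top in the extended record.

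Among the ligands, peaks near the TSS were present in 7 of 13 BMP ligands and in 4 of 7 TGF-beta and activin ligands, and none reached a 10-fold enrichment. TGFB1, a ligand with broad roles in growth arrest and immune regulation, had the highest, a peak of 83 fragments (interval 66.1 to 103) and 8.86-fold enrichment at chr19:41358331-41358988, its summit 4592 bp upstream of the TSS. Its promoter was also covered, by a peak of 44 fragments and 6.69-fold, and 13 peaks lay in its extended record, of which 3 had TGFB1 as the nearest TSS. GDF5, a ligand of joint and skeletal development, followed with 56 fragments (interval 42.3 to 72.7) and 8.46-fold at chr20:35454181-35455803, 180 bp downstream. The GDF5 record starts 16518 bp upstream of the start of its canonical transcript, where no peak was present. TGFB3, known for its role in palate fusion, had a peak of 50 fragments (interval 37.1 to 65.9) and 7.57-fold at chr14:75984236-75984643, 1407 bp upstream.

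BMP6, a ligand that sets hepcidin levels in the liver, had a peak of 49 fragments (interval 36.3 to 64.8) and 6.26-fold at chr6:7721113-7721895, 4417 bp upstream. BMP7, a ligand needed for kidney and eye development, had one of 39 fragments (interval 27.7 to 53.3) and 5.95-fold in its first intron at chr20:57264381-57264961, 1838 bp downstream. Of these 5 ligands, all but GDF5 thus had the strongest peak more than 1 kb from the TSS. The peaks of BMP5 (5.39-fold), BMP3 (5.36-fold), INHBB (4.92-fold), GDF11 (4.15-fold), BMP8A (2.87-fold) and BMP2 (2.70-fold) were weaker, and that of BMP2, with 17 fragments (interval 9.90 to 27.2), was the weakest of all members. GDF11, a ligand of axial patterning, had a stronger peak just outside the window, of 87 fragments and 13.0-fold, whose edge lay 2.05 kb downstream of the TSS.

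The 9 ligands without a peak near the TSS differed in how far the nearest peak lay. It lay 3.11 kb from the TSS of TGFB2, 4.83 kb from that of BMP4, both downstream, and 5.56 kb upstream of BMP10, a ligand of heart development. The BMP10 peak was strong, with 111 fragments (interval 91.3 to 134) and 16.6-fold enrichment, and missed the window by little. For NODAL, GDF6 and GDF7 the distances were 10.8 kb, 11.3 kb and 15.8 kb. The NODAL record starts 6270 bp upstream of the start of its canonical transcript, whose window held no peak either. The most distant were BMP8B with 34.2 kb, INHBA with 44.3 kb and GDF2 with 61.8 kb, and GDF2, a ligand of endothelial cells, had no peak in its extended record. INHBA, which encodes an activin subunit, is on chromosome 7, where the list held 27.3 peaks per Mb against 54.9 on chromosome 1, and the part of this in the INHBA result was not tested. The start of the BMP4 record lies 3711 bp from the RefSeq start, and BMP4 and TGFB2 did have peaks, 2 and 1, in the windows of other transcripts. TGFB2, which has 17 peaks in its extended record, all nearest to its own TSS, is an example of a gene with many peaks but none in the window around the start of its record.

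Among the members, receptors held the strongest peaks near a TSS. TGFBR3 (betaglycan), a co-receptor that presents TGF-beta to the signalling receptors, had a peak of 321 fragments (interval 287 to 358), 42.6-fold enrichment and a −log10 q of 302 at chr1:91904663-91905893, 1146 bp downstream of the start of its record. Among all genes with a peak near the TSS it stood at percentile 99.96. This peak lay 19038 bp upstream of the start of the canonical TGFBR3 transcript, whose own window held 5 peaks, the strongest of them 11.7-fold.

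ACVR1B, a type I receptor for activins and NODAL, had a peak of 208 fragments (interval 181 to 238) and 25.7-fold at chr12:51949431-51950055, 1930 bp upstream, with a −log10 q of 161. TGFBR2, the type II receptor of TGF-beta, had one of 244 fragments (interval 214 to 277) and 25.5-fold at chr3:30601955-30602843, 4238 bp upstream, with a −log10 q of 187. BMPR1B, a type I receptor of BMPs and GDF5, had 72 fragments (interval 56.3 to 90.7) and 10.8-fold at chr4:94757455-94757917, with a −log10 q of 37.0, the peak that covers the TAATCC in the promoter printed above. These 4 receptors were the only members with a peak of 10-fold or more near the TSS. The BMPR1B peak stood at percentile 79.6 among the 11367 protein-coding genes with a peak near the TSS, so peaks of this strength were not rare. The count of 4 members is therefore not read as an excess over all genes.

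The other 7 receptors with a peak near the TSS ranged from 8.31-fold to 3.02-fold. ACVR1, a BMP type I receptor, had 55 fragments at its promoter, ACVR2B 7.72-fold, TGFBR1 6.38-fold, ACVR2A 5.64-fold, BMPR1A 5.13-fold and ACVR1C 4.82-fold. BMPR2, the BMP type II receptor, had the weakest of the receptor peaks near a TSS, with 24 fragments (interval 15.4 to 35.7) and 3.02-fold. ACVRL1, a type I receptor of endothelial cells, was the receptor without a peak in the window of its record, the nearest being 10.7 kb downstream. However, 2 peaks lay in the windows of other transcripts when each of its 8 distinct transcript starts was given its own.

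The strongest peak near the TSS of each SMAD ranged from 5.07-fold to 6.48-fold, below the median of 6.39-fold for all genes with a peak near the TSS in all but SMAD2. SMAD2, a receptor SMAD of the TGF-beta and activin branch, had its strongest at chr18:47935369-47935864, 4489 bp upstream, with 52 fragments (interval 38.8 to 68.2) and 6.48-fold. A further SMAD2 peak covered the RefSeq promoter with 40 fragments and 2.34-fold. SMAD5, of the BMP branch, had 52 fragments and 5.91-fold at chr5:136133620-136133929, 931 bp downstream. SMAD9, also of the BMP branch, had 41 fragments (interval 29.4 to 55.6) and 5.72-fold at chr13:36921170-36921713, 659 bp upstream. SMAD3 and SMAD7, the first a TGF-beta receptor SMAD and the second an inhibitory SMAD, were tied at 35 fragments (interval 24.4 to 48.7) and 5.36-fold, at chr15:67064183-67064582 and chr18:48952256-48952923.

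SMAD1 of the BMP branch had a peak of 38 fragments and 5.18-fold, and SMAD6, an inhibitory SMAD, one of 33 fragments and 5.07-fold at the promoter printed above. SMAD4, the common partner of all receptor SMADs, was the exception. No peak lay in the window of any of its 20 distinct transcript starts. The nearest peak lay 6.75 kb downstream of the start of its record, with 41 fragments and 6.23-fold.

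Of the antagonists, FST (follistatin), which binds activins, had the strongest peak near the TSS, of 43 fragments (interval 31.1 to 57.9) and 5.99-fold at chr5:53478587-53479020, 1739 bp upstream, and it was the only peak in its extended record. NOG (noggin), a BMP antagonist, had 3 peaks near the TSS, the strongest with 39 fragments and 5.00-fold in its exon at chr17:56595242-56595602. LEFTY2, an antagonist of NODAL, had 51 fragments (interval 38.0 to 67.1) and 4.81-fold at chr1:225941416-225941674, 134 bp upstream, where the local input was above its floor. GREM1, a BMP antagonist, had 27 fragments and 4.07-fold. CHRD (chordin) and LEFTY1 had none, with the nearest peaks 8.17 kb and 12.8 kb upstream of the start of the record. The LEFTY1 record starts 22236 bp upstream of the start of its canonical transcript, so distances from that start differ. No peak lay in the window of that transcript either. LEFTY1 and LEFTY2, like BMP8A and BMP8B, are neighbouring genes of closely similar sequence, so that their peak heights are uncertain where reads fit both copies.

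**Figure D2:**
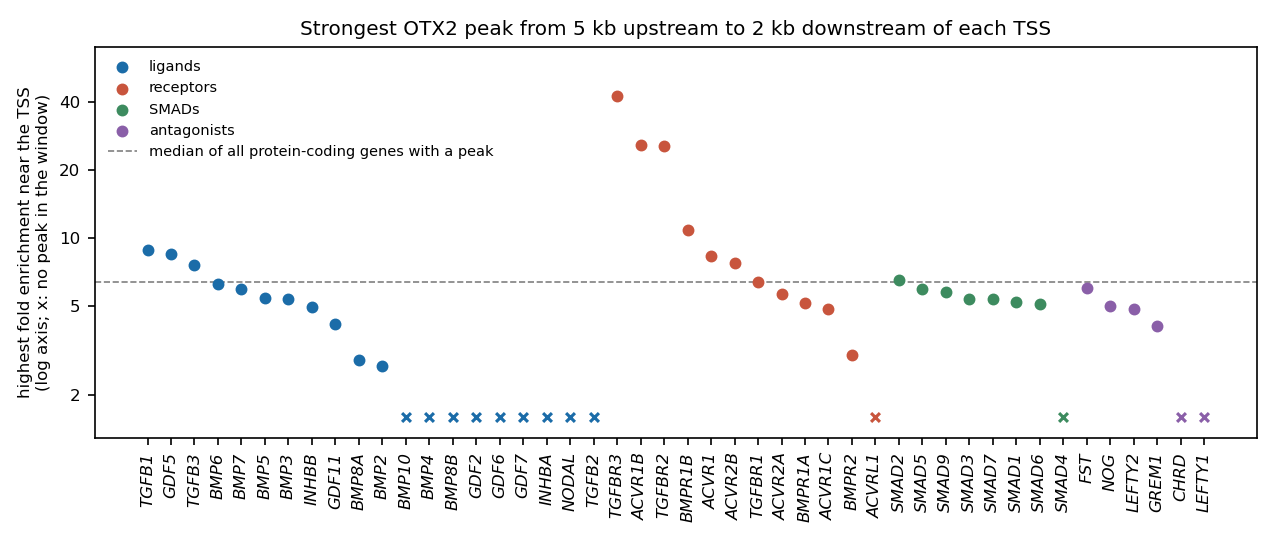
Fold enrichment, on a log axis, of the strongest OTX2 peak in the window around the TSS of each member (5 kb upstream, 2 kb downstream), coloured by role, with crosses for the 13 members without a peak. TGFBR3, ACVR1B, TGFBR2 and BMPR1B stood above 10-fold, and the other members with a peak lay on both sides of the dashed median of all genes with a peak, 6.39-fold.

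The summits of the 57 member peaks that overlapped the window lay further from the TSS than those of all genes. Within 1 kb lay 25 of them (43.9%), against 54.9% for all protein-coding genes, 20 lay more than 1 kb upstream and 12 more than 1 kb downstream. The median of the strongest peak near the TSS was 5.64-fold over the members with a peak and 6.39-fold over all genes with one. More members thus had a peak in the window than the background gives, while the peaks there were neither stronger nor closer to the TSS.

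**Figure D3:**
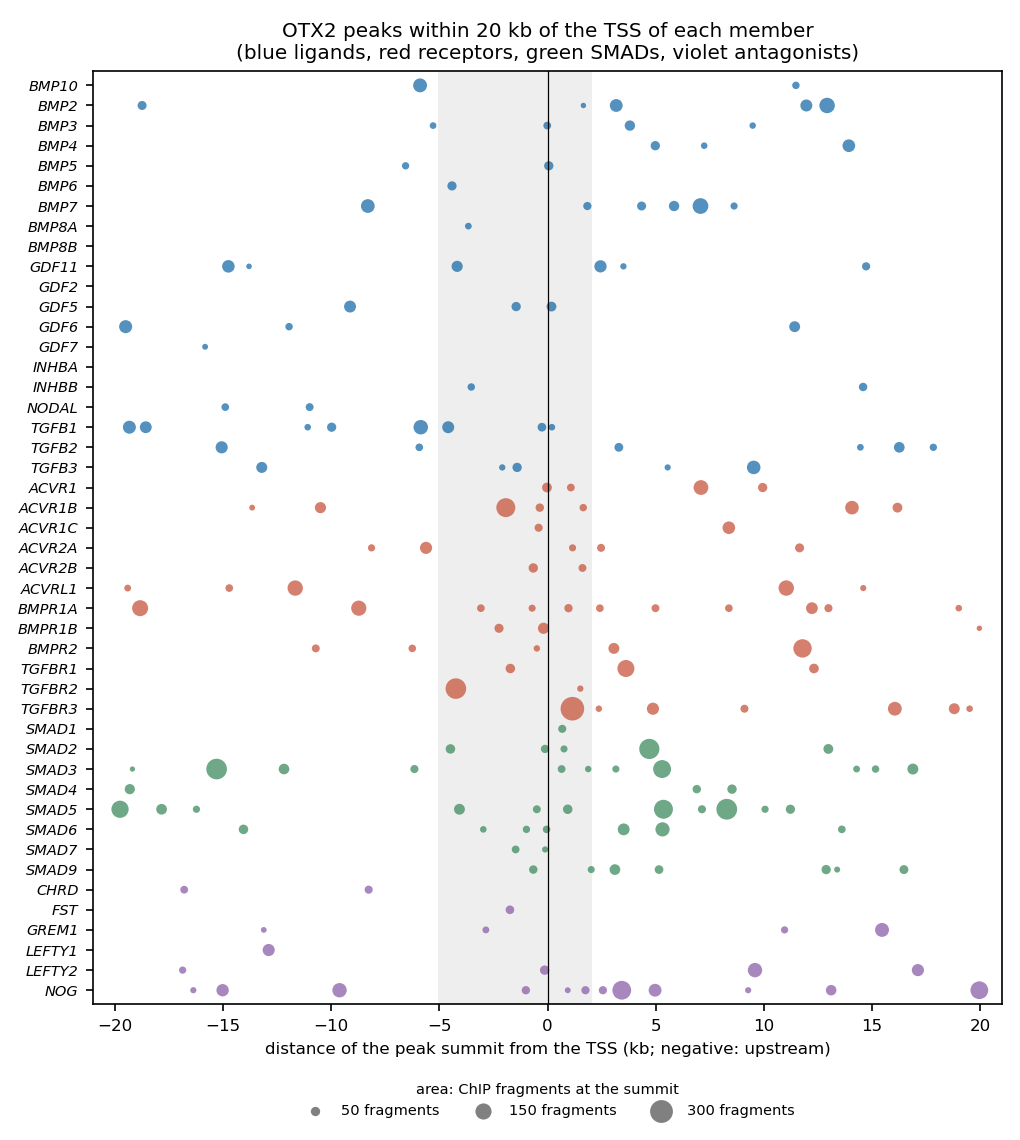
Distance of each OTX2 peak summit from the TSS (kb, negative upstream) for peaks within 20 kb of the TSS of each member, with the point area in ChIP fragments at the summit and the grey band marking the window of 5 kb upstream and 2 kb downstream. The large points of TGFBR3, ACVR1B and TGFBR2 lie inside the band, and those of BMP10, NOG, SMAD5 and SMAD2 lie outside it.

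The tallest peak of a member usually lay away from its TSS. In 40 of the 45 members with a peak in the extended record (88.9%) the tallest was outside the window near the TSS, against 81.4% of all genes with a peak, and its median distance from the TSS was 24.2 kb against 16.8 kb. The tallest peak had a median of 202.5 fragments over receptors, 175.5 over SMADs, 119 over antagonists and 111 over ligands, and 112 over all genes with a peak. With peaks counted only for the gene of the nearest TSS, the antagonist median was 51 and the receptor median 165, against 90 for all genes. Near the TSS these medians were 52, 38, 41.5 and 49 fragments, and 54 for all genes. The receptors and SMADs thus stood above the median of all genes within the extended record and not near the TSS, but they also had the longest extended records, with medians of 134.8 kb and 117.0 kb against 63.2 kb for ligands, 48.6 kb for antagonists and 67.6 kb for all genes. Among genes with extended records over 111.9 kb the median of the tallest peak was 180 fragments, against 278 over 8 receptors and 235 over 5 SMADs. From 67.6 to 111.9 kb it was 111, against 167 over 3 receptors and 69 over 3 SMADs.

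Longer records hold more peaks, so the numbers were set beside length. The extended records of the members had a median of 79.0 kb against 67.6 kb for all genes, a median of 5.5 peaks against 4, and a median of 0.773 peaks per 10 kb against 0.509. At least 10 peaks were present in 16 members (34.8%) and in 17.7% of all genes. Among genes with extended records of 111.9 kb or more, the 17 members had a median of 12 peaks against 10, and a peak lay near the TSS in 16 of these members, where 64.2% of all genes of that length had one. The shorter records did not all show this. From 49.8 to 67.6 kb a peak lay near the TSS in 6 of 13 members (46.2%) against 57.8% of all genes, and from 67.6 to 111.9 kb the members had a median of 0.511 peaks per 10 kb against 0.530. Of the 427 pairs of a member and a peak in its extended record, made of 423 distinct peaks, 336 (78.7%) had the TSS of that member as the nearest protein-coding TSS. That share is given for the members only.

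**Figure D4:**
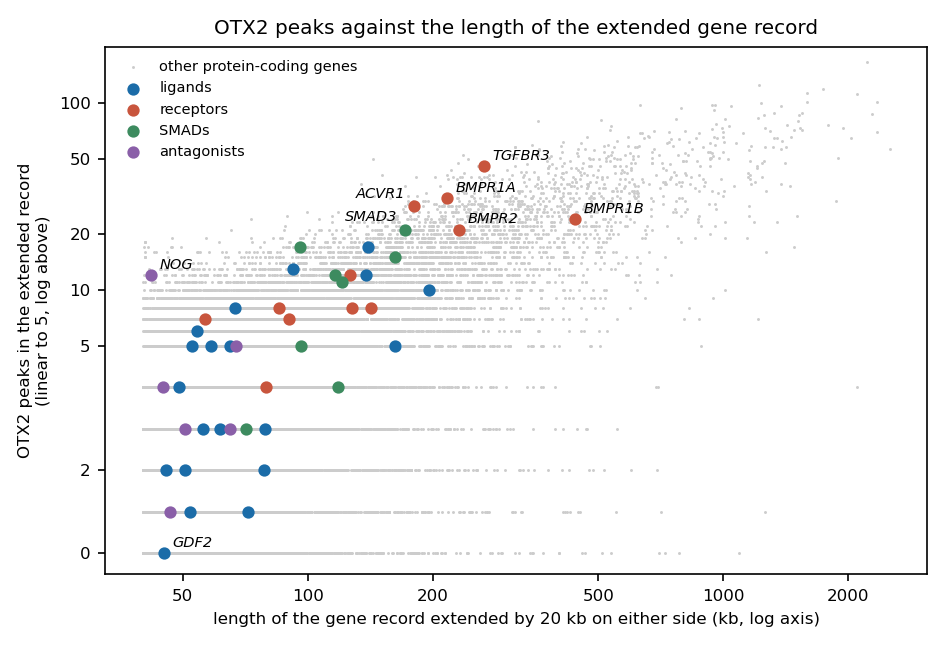
Number of OTX2 peaks in the gene record extended by 20 kb against its length in kb (log axis; counts linear to 5 and log above), for all protein-coding genes in grey and members coloured by role. TGFBR3 with 46 peaks, BMPR1A with 31 and ACVR1 with 28 stood high for their length, NOG had 12 peaks in 41.9 kb, and GDF2 had 0.

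The 5 highest numbers of peaks were shared by 6 members, of which 5 were receptors. TGFBR3 had 46 peaks of 20 to 321 fragments, 44 of them nearest to its own TSS and 12 of at least 10-fold. Besides the one near the start of its record, TGFBR3 peaks of 26.6-fold, 26.0-fold and 20.5-fold lay close together in intron 3, from 115 to 126 kb downstream of the TSS. BMPR1A, a BMP type I receptor, had 31 peaks of 20 to 317 fragments, of which 20 were nearest to its own TSS. Its tallest, of 317 fragments (interval 283 to 354) and 26.0-fold at chr10:86876022-86877626 in intron 3, and a neighbour of 276 fragments and 25.4-fold in intron 2, were nearest to the TSS of SNCG, the gamma-synuclein gene.

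ACVR1 had 28 peaks of 21 to 322 fragments, 26 of them in introns. The tallest, of 322 fragments (interval 288 to 359) and 35.9-fold at chr2:157845734-157846482 in the first intron, and one of 310 fragments and 28.6-fold in intron 3 were far above the 55 fragments at its promoter. BMPR1B had 24 peaks, all nearest to its own TSS, the tallest of 197 fragments, in an extended record of 440 kb, and so 0.545 per 10 kb, near the median of all genes. SMAD3 and BMPR2 had 21 each. The tallest SMAD3 peak, of 282 fragments and 18.9-fold in intron 5, was nearest to the TSS of IQCH, and one of 185 fragments and 27.5-fold lay in the first intron, 5292 bp downstream. Of the 21 BMPR2 peaks, 4 had its own TSS as the nearest, and the tallest, of 312 fragments (interval 278 to 349) and 28.8-fold in the first intron, was nearest to that of another annotated gene.

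**Figure D5:**
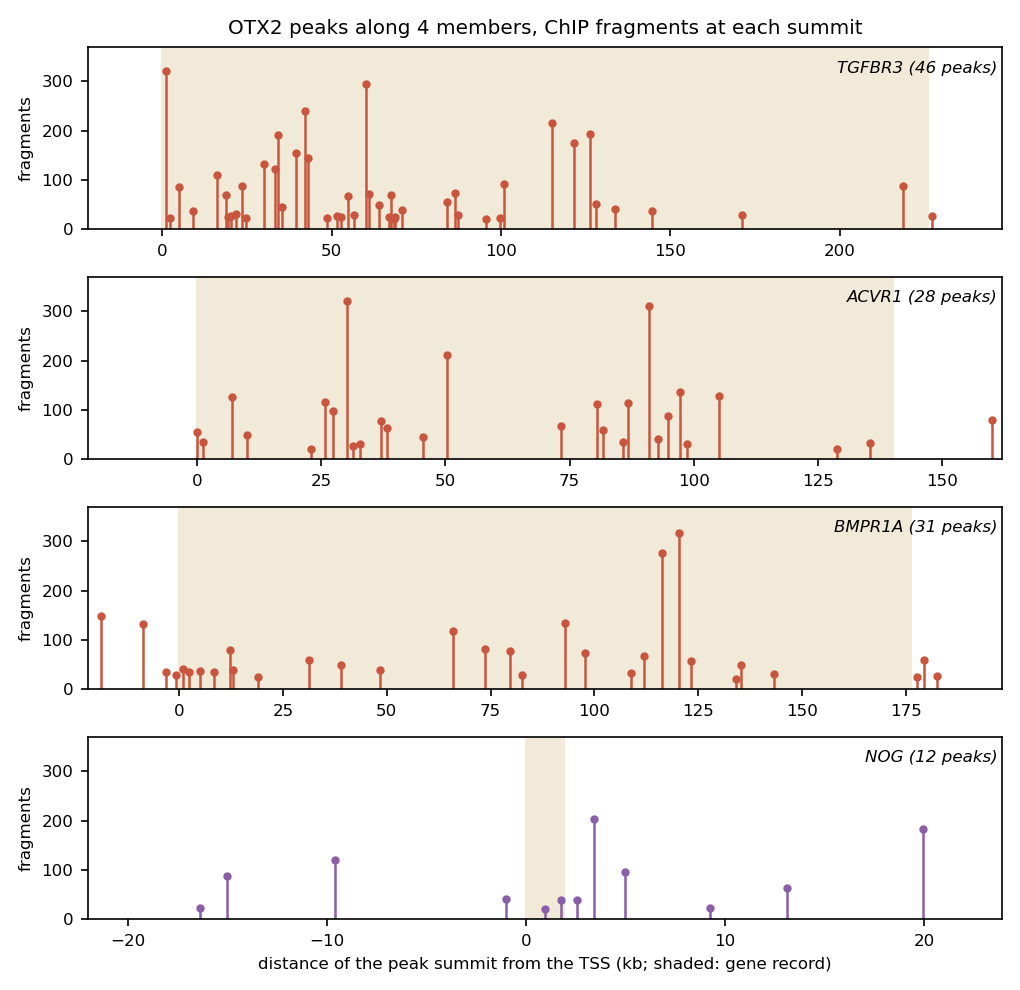
ChIP fragments at the summit of each OTX2 peak along TGFBR3, ACVR1, BMPR1A and NOG, against the distance from the TSS in kb with the gene record shaded. The tallest TGFBR3 peak, 321 fragments, stands at the start of the record, those of ACVR1 and BMPR1A stand inside the gene, and that of NOG, 203 fragments, stands 3.43 kb downstream of the TSS and past the end of the gene.

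NOG had the highest density of peaks among the members, 2.86 per 10 kb, at the 99.8th percentile of all genes. Its 12 peaks, all nearest to its own TSS, lay on both sides of a record of 1913 bp, and the tallest had 203 fragments (interval 176 to 233) and 23.5-fold at chr17:56596891-56597764. Strong peaks inside genes were also present among the ligands. BMP6 had the tallest and most enriched peak of all members, of 349 fragments (interval 313 to 388) and 51.5-fold at chr6:7823855-7825144 in its first intron, 98542 bp downstream of its TSS and nearest to the TSS of TXNDC5. A further peak in the same intron had 231 fragments and 34.3-fold, 21197 bp downstream.

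BMP5 had a peak of 241 fragments and 29.8-fold in its first intron, 49773 bp downstream, and BMP7 one of 143 fragments and 21.3-fold, 7066 bp downstream. Among the SMADs, SMAD5 had 248 fragments and 28.7-fold at 8281 bp downstream and SMAD2 had 195 fragments and 24.1-fold at 31492 bp downstream, both in the first intron. TGFBR1, the type I receptor of TGF-beta, had 167 fragments and 24.8-fold at 3621 bp downstream, outside the window of 2 kb. In all, 22 member peaks were of at least 20-fold: 13 in receptors, 4 in ligands, 4 in SMADs and 1 in an antagonist, NOG. Receptors held 204 of the 427 pairs of a member and a peak (47.8%), and the share of at least 20-fold was 5.15% of member peaks against 6.72% of all peaks. A fold enrichment of at least 10 was found for 24.1% of member peaks and 26.3% of all peaks, so the share of strong peaks among member peaks was not above that of the whole list.

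By place, 255 of the 427 pairs (59.7%) had the summit in an intron of the member's canonical transcript, 147 of them in the first. A further 88 lay upstream of the record, 49 downstream of it, 21 in an exon and 14 inside the record but outside the canonical transcript. At 18 peaks the local input was at least 3 times its floor, as at the SMAD2 promoter. These places and this count are given for the members only, without the share of all genes, and are not read as a trait of the members. The list had 4 peaks in the extended records of 2 members, a pair shared by LEFTY1 and LEFTY2 and a pair shared by ACVR1B and ACVRL1.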

How the data were processed

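Per the submitters' processing notes, the authors mapped the reads with Bowtie2 2.2.4 to GRCh38 and called peaks of the OTX2 ChIP library over the input library with MACS2 2.1.0.20140616 at a q-value cutoff of 0.05. The methods state that peaks in ENCODE blacklist regions were masked, which could not be traced in the deposited list, so peaks of high local input were also left out as an alternative. Each deposited peak has a pileup, which is a signal (scaled fragment coverage at its summit), and a fold enrichment, the ratio of pileup to local input after 1 was added to both, whose precision is limited by the shallower input. Its significance was deposited as the −log10 q-value. Pileups divided by 0.735 gave whole fragments, with a largest distance of 0.00681, and the implied local input had a floor of 3.99.

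Genes came from GENCODE release 44 as placed on GRCh37 with the original GRCh38 positions recorded. Those positions were used, and no coordinate was converted. A peak counted with an overlap of at least 1 bp, and shares stand beside those of all protein-coding genes. No test was run, since there was 1 library per condition. The tools were matplotlib 3.10.9, scipy 1.17.1, numpy 2.4.6 and pandas 2.3.3 under Python 3.11.15, and the overlap counts were tested on simulated peaks.

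The members and lists were chosen with earlier results of these data known. Peaks are given in full for the members of highest fold enrichment by the TSS in each role (5 ligands, 4 receptors, 4 SMADs and 3 antagonists) and for the most peaks in the extended record. SMAD3 and SMAD7 were tied, as were SMAD3 and BMPR2, so both were kept. Peaks of at least 10-fold and 20-fold, and other single peaks, were chosen after their values were seen. Alternatives were stricter peaks, other windows, other TSSs and the nearest TSS, and the canonical transcript was added after seeing the data.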

Additional observations from a re-analysis of the deposited data

How the results depend on the processing

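With 1 ChIP and 1 input library, no replicate could be left out, and how much these counts would move in a second culture was not tested. No paired analysis was possible because each condition had 1 library and no result came from a test. Of 40 alternative values, 33 stayed within the set limits (1.5 times for a count of members) and 7 moved. The limits apply to each value alone and not to its difference from the background. Without the extension the record count fell from 45 to 33 and stayed within them, although 97.8% against 88.1% became 71.7% against 69.5%. In a window of 1 kb to each side of the TSS the members with a peak fell from 33 to 21, with a background of 46.9%. When peaks were kept only for the gene with the nearest TSS, the median height of the tallest peak became 165 fragments over receptors and 51 over antagonists, against 90 for all genes, so that antagonists passed from above to below the median of all genes. For the strongest peak near the TSS it became 49 over ligands, 52 over receptors, 38 over SMADs and 41.5 over antagonists. Under the other alternatives, 24 to 36 members had a peak near the TSS and 33 to 45 in the record, the lowest of the latter without the extension. The share of all genes changed too. Near the TSS, 24 members at 5-fold or more stood against 38.5%. With a −log10 q of at least 5, 30 stood against 52.03%, and with any transcript TSS 36 stood against 66.6%. With the nearest TSS only, the counts were 33 against 50.5% near the TSS and 42 against 74.7% in the record. With an extension of 50 kb, 45 stood against 94.1%. The canonical transcript, chosen after seeing the data, gave 32 against 58.5%. The motif count was 3 of 38 with TAATCC alone, against 5.34% of all promoters. A missing peak says only that none passed the cutoff at this depth.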

Other observations

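A further 63 genes of the same pathways, which belong to none of the 4 roles as listed above, were counted in the same way. A peak lay near the TSS of 34 (54.0%), against 57.2% of all protein-coding genes, and in the extended record of 56 (88.9%), against 88.1%. By group, a peak lay near the TSS of 9 of 12 target genes, 8 of 12 intracellular modulators and 6 of 12 other antagonists. The same held for 4 of 7 other receptors and co-receptors, AMHR2 and BAMBI among them, 4 of 9 matrix carriers and proteases and 3 of 11 other ligands. The 5 highest fold enrichments near the TSS were those of CHRDL2, a chordin-like antagonist, with 25.5-fold, LTBP1, which holds latent TGF-beta in the matrix, with 17.8-fold, the target gene JUNB with 17.3-fold, SKIL, a repressor of SMAD activity, with 15.8-fold, and TWSG1, a BMP-binding protein, with 13.5-fold. The ID genes, targets of BMP signals that restrain differentiation, all had peaks near the TSS. Their strongest were 10.8-fold at ID3, 8.28-fold at ID2, 6.62-fold at ID1 and 5.21-fold at ID4, and ID1 had 4 peaks in the window.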
